A study of Homo sapiens with 21 samples.

Results

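Receptor tyrosine kinases are described here through 9 genes chosen by symbol: PDGFRA, PDGFRB, KIT, AXL, EGFR, ERBB2, MET, FGFR1 and DDR2. They were chosen with earlier results of these data known. They are 9 of the 57820 genes in the table, and all 9 passed the filter on low values. RNA was sequenced from A673, an established Ewing sarcoma cell line that carries the fusion oncoprotein EWS/FLI. All 21 libraries come from this 1 line, and every culture was stably infected with an RNAi construct, selected for 4 days and then infected with a pMSCV-hygro vector. The control group (n = 4) carried RNAi against luciferase and an empty vector. The knockdown group (n = 5) carried RNAi against EWS/FLI and an empty vector. The other 3 groups carried the same EWS/FLI RNAi and a vector for full-length type IV EWS/FLI (the wild-type group, n = 5) or for the EWS/FLI mutants delta 22 (n = 4) or mut9 (n = 3). The labels do not describe what the mutants change, and nothing in them says whether replicates are separate cultures, so p-values measure the spread between these libraries. The replicate number is the labelled batch.

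A receptor tyrosine kinase spans the membrane, binds a ligand outside the cell and, once dimerised, phosphorylates tyrosines on itself and on adaptor proteins. Adaptors then feed the RAS-ERK, PI3K and STAT pathways, and ERK induces its own brakes, such as the Sprouty proteins and the dual-specificity phosphatases. Ewing sarcoma cells are driven by EWS/FLI, which binds the ETS core GGAA, as single sites and as repeats called GGAA microsatellites, and both raises and lowers genes.

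The sequences just before the start sites are shown for the 4 receptors with the largest knockdown differences (PDGFRA, EGFR, AXL and MET), for PDGFRB, a close relative of PDGFRA that moved far less, and for KIT, which moved the other way. Each is the 250 bases before the RefSeq start nearest to the GENCODE gene start, in GRCh38.p14, read 5′ to 3′ on the strand of the gene. Capitals mark GGAA or its reverse complement TTCC.
PDGFRA (chr4:54229043-54229292, plus strand): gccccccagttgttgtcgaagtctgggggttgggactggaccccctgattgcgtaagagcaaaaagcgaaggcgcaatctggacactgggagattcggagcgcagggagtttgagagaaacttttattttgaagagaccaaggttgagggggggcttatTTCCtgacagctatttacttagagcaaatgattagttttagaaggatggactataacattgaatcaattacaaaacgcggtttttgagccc
EGFR (chr7:55018767-55019016, plus strand): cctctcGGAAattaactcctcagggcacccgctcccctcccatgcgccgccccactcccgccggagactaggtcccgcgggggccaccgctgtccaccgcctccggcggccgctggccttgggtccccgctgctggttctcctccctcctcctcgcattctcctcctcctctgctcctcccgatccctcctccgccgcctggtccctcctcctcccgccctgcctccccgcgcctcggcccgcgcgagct
AXL (chr19:41218973-41219222, plus strand): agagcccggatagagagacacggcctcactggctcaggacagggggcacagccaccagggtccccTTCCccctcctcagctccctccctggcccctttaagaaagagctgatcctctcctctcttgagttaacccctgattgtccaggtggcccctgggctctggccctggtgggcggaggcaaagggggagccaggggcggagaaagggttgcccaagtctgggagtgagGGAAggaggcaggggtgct
MET (chr7:116671946-116672195, plus strand): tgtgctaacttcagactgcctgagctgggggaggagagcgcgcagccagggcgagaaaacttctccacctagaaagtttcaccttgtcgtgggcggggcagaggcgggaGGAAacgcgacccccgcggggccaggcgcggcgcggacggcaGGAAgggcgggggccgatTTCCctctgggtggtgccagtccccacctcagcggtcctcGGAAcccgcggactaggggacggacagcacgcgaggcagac
PDGFRB (chr5:150155846-150156095, minus strand): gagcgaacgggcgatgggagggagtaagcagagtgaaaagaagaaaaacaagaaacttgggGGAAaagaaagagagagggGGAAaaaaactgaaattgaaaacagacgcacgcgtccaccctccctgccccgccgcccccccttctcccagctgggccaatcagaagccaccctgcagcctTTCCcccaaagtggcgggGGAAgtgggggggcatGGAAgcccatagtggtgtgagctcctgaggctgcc
KIT (chr4:54657707-54657956, plus strand): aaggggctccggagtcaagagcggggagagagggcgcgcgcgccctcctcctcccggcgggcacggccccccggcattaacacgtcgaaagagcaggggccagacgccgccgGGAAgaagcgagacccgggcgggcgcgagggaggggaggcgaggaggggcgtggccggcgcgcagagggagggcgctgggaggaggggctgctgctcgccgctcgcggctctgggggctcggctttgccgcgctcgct

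The windows of PDGFRA, EGFR and KIT each held 1 GGAA on either strand, that of AXL held 2, that of MET 4 and that of PDGFRB 5. The count depends on the start chosen. At another RefSeq start, farther from the gene start, the window held 2 for PDGFRA, 4 for AXL and 5 for EGFR. Over all 35116 windows of this length the median was 3, and 92.7% held at least 1. The doubled core GGAAGGAA or its reverse complement was in 3.06% of all windows and in 0 of the 13 windows kept for 8 members. Chromosome 8, where FGFR1 lies, was left out of the member count after the motifs had been counted. The count of 0 therefore does not cover FGFR1. These counts are a description of these windows only, and no binding was measured.

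Facts of the whole table bear on what follows. The values are the authors' normalized log2 values, from which the depth of a library cannot be recovered, so no counting interval is given. The message of FLI1, the fusion partner of EWS, had a log2 value of 11.64 ± 0.06 (SD, n = 4) in control. Knockdown left 9.77 ± 0.16 (n = 5). The rescue groups stood at 10.47 ± 0.13 for wild-type (n = 5), 11.27 ± 0.23 for delta 22 (n = 4) and 10.23 ± 0.15 for mut9 (n = 3). FLI1 therefore followed the labels, while the delta 22 group carried more FLI1 message than the wild-type group. Of 8 Ewing sarcoma markers 7 passed the filter, and CD99 is listed at 0 in every library. CCND1 was high in every group (means of 16.76 to 17.27), while PRKCB, LIPI and NKX2-2 had means of 14.29, 12.02 and 9.66 in control and of 10.65, 7.39 and 7.23 in knockdown. The summed linear levels of the leukocyte, endothelial, epithelial and skeletal muscle lists stayed at or below 355. The endothelial sum was 22.5 to 29.3 in control and 136 to 338 in knockdown, and TIE1, itself a receptor tyrosine kinase, is on that list. The leukocyte sum was 25.4 to 36.5 in control and 57.0 to 115 in knockdown, and 33.9 to 44.0 in wild-type and 106 to 132 in mut9. In the same order the skeletal muscle sum was 6.47 to 9.28, 20.25 to 37.9, 7.77 to 24.1 and 8.31 to 10.6, and the epithelial sum 20.4 to 31.5, 27.3 to 43.7, 14.4 to 16.5 and 17.0 to 20.6. The part of these markers in the results was not tested.

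Knockdown was compared with control to ask which receptors change when EWS/FLI is lowered. Of the 9 receptors 7 rose and 1 fell. Rises were called for 35.5% and falls for 34% of all 18040 genes tested, so a call in itself was common. Of all calls 51.1% were rises, and 38.0% after quantile scaling, which moved the median of all genes by -0.20. The median log2 difference was 1.36 over the 9 receptors and -0.01 over all genes. It was -0.22 over the 43 other receptor tyrosine kinases tested, and the 9 were chosen with earlier results of these data known. PDGFRA, EGFR, AXL and MET rose by 11.7-fold to 132-fold, where FGFR1 and PDGFRB rose by 2.56-fold and 2.30-fold.

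PDGFRA, the alpha receptor for platelet-derived growth factor, had normalized log2 values of 5.94, 5.92, 5.73 and 5.65 in control replicates 1, 2, 3 and 5. In knockdown replicates 1 to 5 its values were 13.60, 13.03, 12.62, 12.80 and 12.23. The groups were far apart, and the difference was 7.05 ± 0.29 (SE; 132-fold, limma adjusted p = 1.93e-13). Within the 4 batches that hold both groups it was 6.58 to 7.66.

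EGFR, the receptor for epidermal growth factor, was at 5.17, 4.68, 4.93 and 4.84 in control. In knockdown it was at 12.04, 11.20, 11.43, 11.40 and 11.88. It rose by 6.68 ± 0.33 (103-fold, limma adjusted p = 1.56e-12) with no overlap.

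AXL, a receptor of the TAM family that binds GAS6, was at 6.64, 7.76, 7.80 and 7.33 in control and at 13.24, 12.76, 12.67, 13.07 and 13.44 in knockdown. It rose by 5.66 ± 0.36 (50.4-fold, limma adjusted p = 4.93e-11). MET, the receptor for hepatocyte growth factor, was at 9.28, 10.07, 9.90 and 9.82 in control and at 13.06, 13.35, 13.31, 13.39 and 13.52 in knockdown. Its rise was 3.55 ± 0.23 (11.7-fold, limma adjusted p = 6.72e-11). Neither gene overlapped between the groups.

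FGFR1, a fibroblast growth factor receptor, was among the tightest. It was at 12.49, 12.52, 12.46 and 12.41 in control and at 13.82, 13.84, 13.92, 13.73 and 13.83 in knockdown, a rise of 1.36 ± 0.06 (limma adjusted p = 1.10e-12). PDGFRB, the beta receptor for platelet-derived growth factor, was the most scattered of the risers. It was at 9.60, 10.47, 10.24 and 9.48 in control and at 11.05, 10.53, 11.36, 11.99 and 10.79 in knockdown. The rise was 1.20 ± 0.37 (limma adjusted p = 0.00705), and the highest control library stood only 0.06 below the lowest knockdown library, both of batch 2.

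ERBB2, the ERBB family member with no known ligand of its own, was at 8.55, 9.01, 9.27 and 9.01 in control and at 9.15, 9.31, 9.49, 9.69 and 9.44 in knockdown. The groups overlapped, and the rise was 0.46 ± 0.16 (limma adjusted p = 0.0135). It was no longer called without control replicate 1 (0.32, adjusted p = 0.0742) or after quantile scaling (0.23, adjusted p = 0.15).

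KIT, the receptor for stem cell factor, fell. It was at 9.12, 9.97, 9.92 and 9.75 in control and at 8.62, 8.58, 8.19, 8.71 and 8.43 in knockdown, a difference of -1.19 ± 0.27 (limma adjusted p = 0.000652), with every knockdown library below every control library. DDR2, a collagen receptor, was at 13.65, 13.68, 13.58 and 13.51 in control and at 13.84, 13.76, 13.86, 13.92 and 13.55 in knockdown. Its difference of 0.18 (95% interval -0.01 to 0.38) was not called (limma adjusted p = 0.0919). With batch as a block it was 0.16 and called (adjusted p = 0.0375), as it was without knockdown replicate 5 (0.24, adjusted p = 0.0249).

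**Figure D1:**
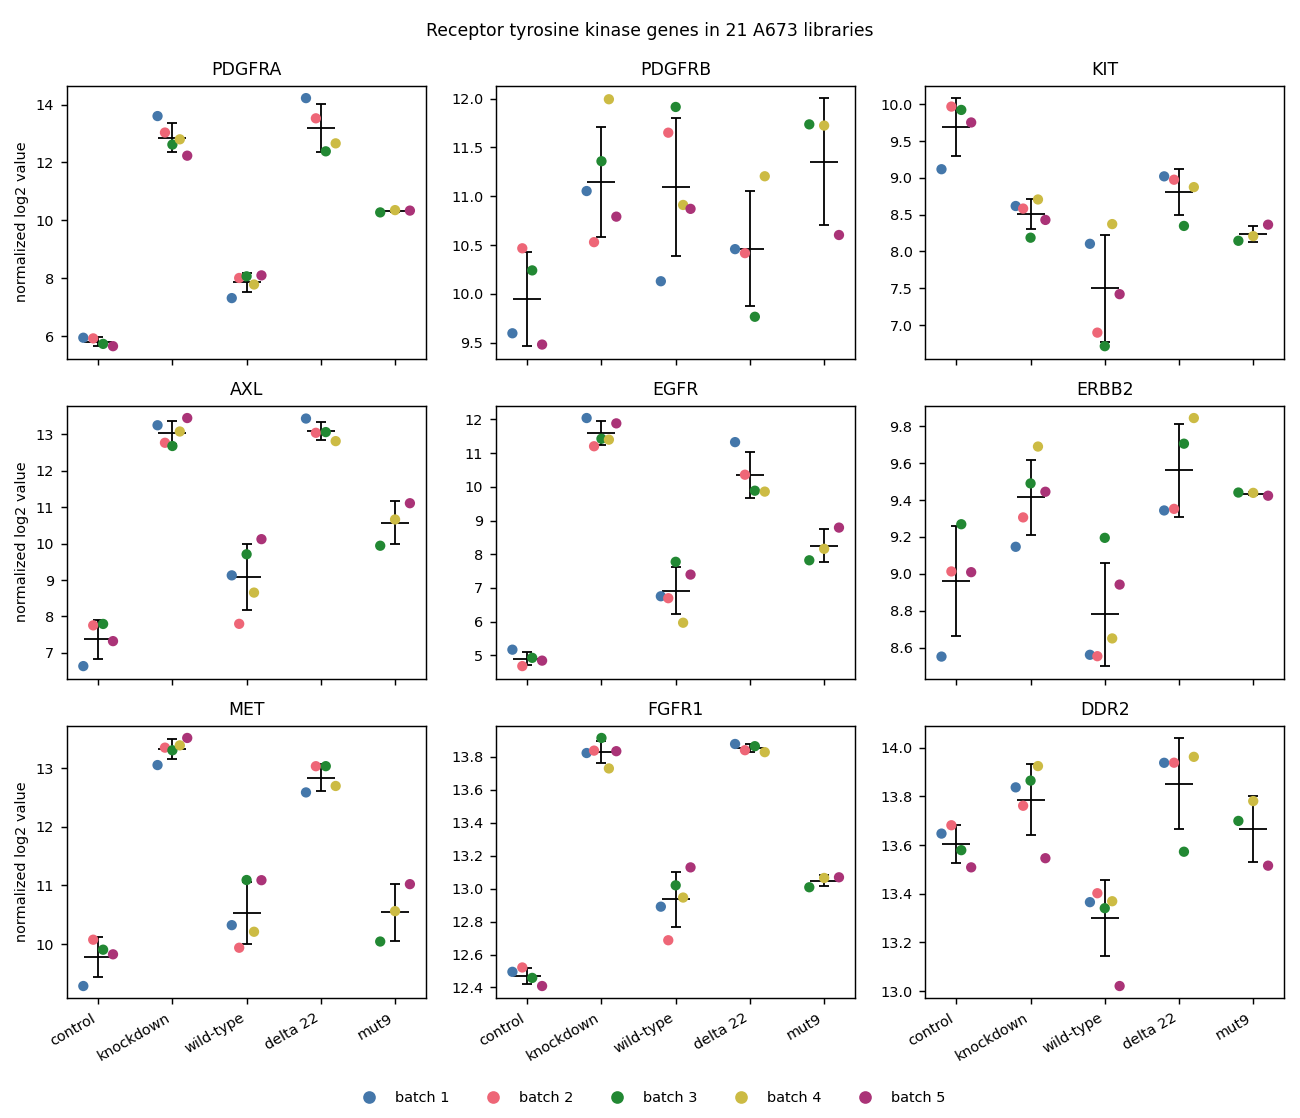
Normalized log2 value of each receptor gene (vertical axis, a separate range in each panel) in the 21 libraries of 5 groups (horizontal axis). Points are libraries coloured by labelled batch, and black bars are the group mean ± SD. PDGFRA, EGFR, AXL and MET are high in knockdown and delta 22, while KIT is highest in control.

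Full-length EWS/FLI was put back in the wild-type group. Against knockdown, 0 of the 9 receptors rose and 8 fell, where 29.6% of all genes rose and 32.3% fell (47.8% of calls were rises, and 59.5% after quantile scaling). At an unadjusted p under 0.05 the count of receptors that rose was also 0. PDGFRA was at 7.31, 8.01, 8.06, 7.78 and 8.10 in wild-type replicates 1 to 5, a fall of 32.1-fold from knockdown (-5.005 ± 0.28). EGFR, at 6.75, 6.70, 7.77, 5.97 and 7.40, had fallen 25.5-fold (-4.67 ± 0.31). All 5 batches showed both falls.

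AXL in the wild-type group was at 9.13, 7.80, 9.71, 8.65 and 10.12, the widest spread of any receptor in any group (SD 0.91), and its difference from knockdown was -3.96 ± 0.34. MET was at 10.32, 9.94, 11.09, 10.21 and 11.09 (-2.80 ± 0.22). FGFR1 was at 12.89, 12.69, 13.02, 12.95 and 13.13 (-0.89 ± 0.06). PDGFRA, EGFR, AXL, MET, FGFR1 and ERBB2 all had their 2 highest wild-type values in replicates 3 and 5.

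KIT did not return toward control. In the wild-type group it was at 8.10, 6.90, 6.71, 8.37 and 7.42, lower again than in knockdown (-1.004 ± 0.26 on the log2 scale, limma adjusted p = 0.00209), although the groups overlapped. ERBB2 was at 8.56, 8.55, 9.19, 8.65 and 8.94 (-0.64 ± 0.15), and DDR2 was at 13.37, 13.40, 13.34, 13.37 and 13.02 (-0.49 ± 0.09). PDGFRB was at 10.13, 11.65, 11.91, 10.91 and 10.87. Its difference of -0.05 (95% interval -0.78 to 0.68) was not called, and it was higher than knockdown in 3 batches and lower in 2.

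The wild-type group was also set against control, to show how far it stood from the starting state. Of the 9 receptors 6 were higher and 2 lower, where 21.3% of all genes were higher and 18.3% lower (53.7% of calls were rises, and 42.7% after quantile scaling). PDGFRA was still 4.12-fold above control (2.04 ± 0.29), EGFR 4.04-fold (2.01 ± 0.33) and AXL 3.25-fold (1.70 ± 0.36), each with no overlap. For AXL the groups barely parted, with control replicate 3 at 7.796 and wild-type replicate 2 at 7.799. Within batch 2 the difference of AXL was 0.04. FGFR1 was higher by 0.46 ± 0.06, PDGFRB by 1.15 ± 0.37 and MET by 0.76 ± 0.23. KIT was 4.56-fold lower (-2.19 ± 0.27) and DDR2 lower by 0.30 on the log2 scale (-0.30 ± 0.09). MET was not called without control replicate 1 (0.60, adjusted p = 0.0594). PDGFRB was not called without control replicate 1 (1.03), control replicate 5 (0.99) or wild-type replicate 3 (0.94). In batches 3 to 5 alone, neither PDGFRB (1.37) nor DDR2 (-0.30) was called.

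The delta 22 mutant was compared with knockdown to ask whether it acts on the receptors. Of the 9 receptors 0 rose and 1 fell, where 2.24% of all genes rose and 2.26% fell (49.8% of calls were rises, and 44.5% after quantile scaling). By the same limma fit, 0 receptors were higher at an unadjusted p under 0.05. EGFR was the receptor that fell. It was at 11.33, 10.36, 9.88 and 9.86 in delta 22 replicates 1 to 4, lower than knockdown by 1.23 ± 0.33 in size (-1.23, limma adjusted p = 0.0343), and lower in 4 of 4 batches (-1.54 to -0.71). The call was lost without any 1 of delta 22 replicates 2, 3 and 4 or knockdown replicates 1, 3 and 5, with differences of -1.27 to -1.07. It was also lost in a fit of the compared groups only (adjusted p = 0.0695), without the filter (adjusted p = 0.0503) and in batches 3 to 5 alone (-1.70, adjusted p = 0.124). MET, at 12.59, 13.04, 13.04 and 12.70, lay below all knockdown libraries without being called (-0.49, 95% interval -0.96 to -0.01, limma adjusted p = 0.25).

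PDGFRA in delta 22 was at 14.22, 13.52, 12.38 and 12.66, and its difference from knockdown was 0.34 (95% interval -0.27 to 0.95). AXL was at 13.42, 13.03, 13.05 and 12.81, with a difference of 0.04 (-0.70 to 0.79). FGFR1 was at 13.88, 13.84, 13.87 and 13.83, with a difference of 0.02 (-0.11 to 0.16). For FGFR1 the interval is narrow, and for PDGFRA and AXL it is wide. KIT, at 9.02, 8.98, 8.35 and 8.87, differed by 0.30. ERBB2, at 9.34, 9.35, 9.71 and 9.84, differed by 0.15. DDR2, at 13.94, 13.94, 13.57 and 13.96, differed by 0.07. PDGFRB, at 10.46, 10.42, 9.77 and 11.20, differed by -0.68. None of these was called.

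Against control the delta 22 group had 7 receptors higher and 1 lower, where 35.1% of all genes were higher and 33.7% lower (51.0% of calls were rises, and 39.3% after quantile scaling). This comparison shares its control libraries with knockdown against control. PDGFRA was 167-fold higher than control, AXL 52.0-fold, EGFR 43.8-fold and MET 8.39-fold. DDR2 was called at 0.25 (limma adjusted p = 0.0324), and the call was lost with 5 single libraries left out (control replicates 3 and 5, delta 22 replicates 1, 2 and 4), where the difference was 0.21 to 0.24, and after quantile scaling (0.13). PDGFRB was not called (0.52). Against wild-type, 8 receptors were higher and 0 lower in delta 22, where 31.7% of all genes were higher and 29.5% lower (51.9% of calls were rises, and 41.9% after quantile scaling). PDGFRB was the exception at -0.63 (limma adjusted p = 0.145), and it was called lower with batch as a block (-0.75, adjusted p = 0.0499) and without wild-type replicate 1 (-0.88, adjusted p = 0.0429). Within the 4 shared batches PDGFRB was higher in 2 and lower in 2 (-2.15 to 0.33). At an unadjusted p under 0.05 the count of receptors lower was 0.

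The mut9 mutant was compared with knockdown in the same way. Of the 9 receptors 0 rose and 5 fell, where 23% of all genes rose and 25.5% fell (47.4% of calls were rises, and 55.7% after quantile scaling). At an unadjusted p under 0.05 the count that rose was 0. PDGFRA was at 10.27, 10.35 and 10.34 in mut9 replicates 3, 4 and 5, 5.80-fold below knockdown (-2.54 ± 0.32). EGFR was at 7.82, 8.16 and 8.79, 10.1-fold below (-3.33 ± 0.35). AXL was at 9.94, 10.66 and 11.10, 5.53-fold below (-2.47 ± 0.39). All 3 genes lay below every knockdown library.

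MET in mut9 was at 10.04, 10.56 and 11.02, a fall of 6.88-fold from knockdown (-2.78 ± 0.25). FGFR1 was at 13.01, 13.06 and 13.07 (-0.78 ± 0.07). The others were not called. KIT was at 8.15, 8.21 and 8.36 (-0.27, 95% interval -0.88 to 0.35), ERBB2 at 9.44, 9.44 and 9.42 (0.02, -0.33 to 0.37), DDR2 at 13.70, 13.78 and 13.52 (-0.12, -0.34 to 0.09) and PDGFRB at 11.74, 11.72 and 10.60 (0.21, -0.63 to 1.05).

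**Figure D2:**
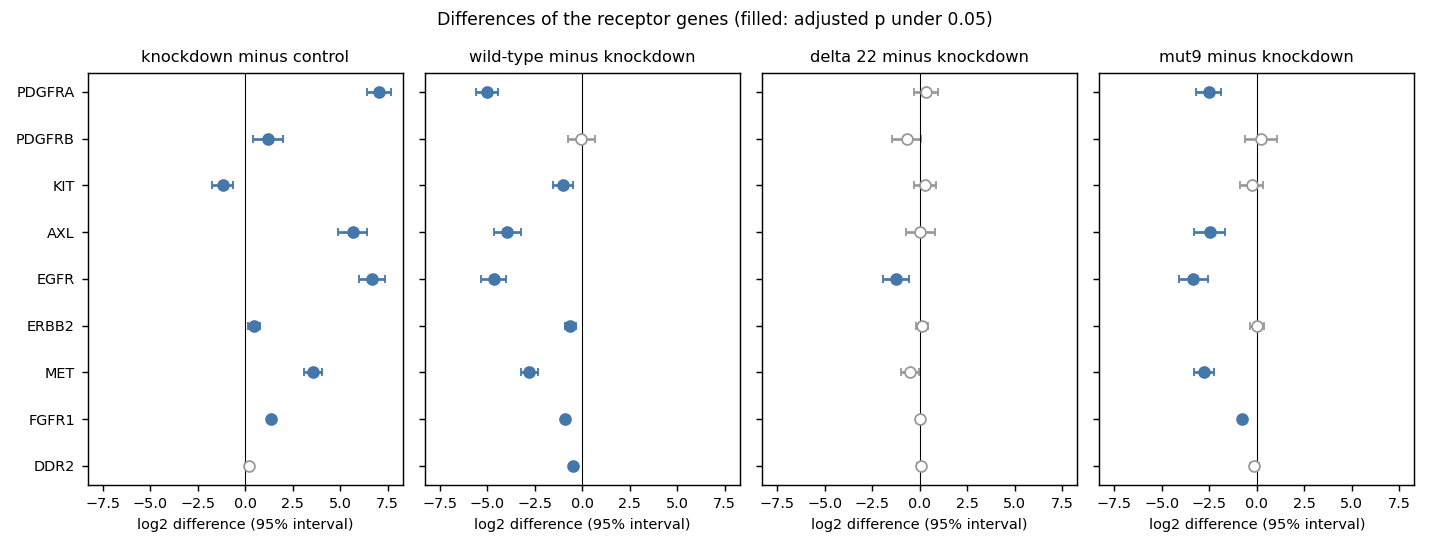
Log2 difference (horizontal axis, with its 95% interval) of each receptor gene in 4 comparisons, 1 per panel. Filled points have an adjusted p under 0.05, and open points do not. PDGFRA, EGFR, AXL, MET and FGFR1 lie left of 0 with wild-type and with mut9, and with delta 22 EGFR alone of the 9 is filled.

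The direct comparison of mut9 with wild-type asks whether the mutant leaves the receptors at another level than the intact protein. Of the 9 receptors 5 were higher and 0 lower in mut9, where 11.2% of all genes were higher and 7.61% lower (59.5% of calls were rises, and 43.9% after quantile scaling). At an unadjusted p under 0.05 the count of receptors lower was 0. PDGFRA had the largest of these differences, 5.53-fold (2.47 ± 0.32, limma adjusted p = 7.14e-05). It held in 3 of 3 batches, at 2.21 to 2.57, and with each library left out, at 2.33 to 2.53.

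The other 4 calls were closer to the threshold. AXL was higher by 1.49 ± 0.39 (limma adjusted p = 0.012), by 0.23 to 2.00 within batches, and was not called without mut9 replicate 4 (adjusted p = 0.0504) or 5 (adjusted p = 0.0689). EGFR was higher by 1.34 ± 0.35 (limma adjusted p = 0.013), by 0.05 to 2.19 within batches, and was not called without mut9 replicate 5 (1.07, adjusted p = 0.0764). ERBB2 was higher by 0.65 ± 0.17 (limma adjusted p = 0.0111) with no overlap. DDR2 was higher by 0.37 ± 0.10 (limma adjusted p = 0.0181), and was not called without mut9 replicate 3 (0.35) or 4 (0.31). In batches 3 to 5 alone AXL (1.07), EGFR (1.21) and DDR2 (0.42) were not called, nor was AXL in a fit of the compared groups only (adjusted p = 0.0691).

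MET did not differ detectably between mut9 and wild-type, at 0.01 with a 95% interval of -0.51 to 0.53, and it was lower in 2 of 3 batches. FGFR1 differed by 0.11 (-0.03 to 0.26) and PDGFRB by 0.26 (-0.58 to 1.10). KIT differed by 0.74 (limma adjusted p = 0.0883), and was called without wild-type replicate 1 (0.89, adjusted p = 0.0476) or 4 (0.96, adjusted p = 0.0194). Whether the response of PDGFRA to mut9 differs from that of MET was not tested.

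Set against control, mut9 had 7 receptors higher and 1 lower, where 23.5% of all genes were higher and 18.9% lower (55.4% of calls were rises, and 38.4% after quantile scaling). PDGFRA was 22.8-fold above control, EGFR 10.2-fold and AXL 9.11-fold. KIT was 2.74-fold below. The call of ERBB2 at 0.47 (limma adjusted p = 0.0366) was lost with batch as a block (0.30, adjusted p = 0.0589), after quantile scaling (0.29) and with 6 of the 7 libraries left out in turn, all but control replicate 3. That of MET at 0.77 was lost without control replicate 1 (0.61), mut9 replicate 4 (0.76) or mut9 replicate 5 (0.53). That of PDGFRB at 1.41 was lost without mut9 replicate 3 or 4 (both 1.22). Against delta 22, mut9 had 0 receptors higher and 5 lower, where 23.4% of all genes were higher and 25.8% lower (47.6% of calls were rises, and 54.3% after quantile scaling). PDGFRA (-2.88), AXL (-2.51), MET (-2.30), EGFR (-2.10) and FGFR1 (-0.81) were the 5. PDGFRB, at 0.89 (limma adjusted p = 0.0858), passed an unadjusted p under 0.05, and was called higher without delta 22 replicate 4 (1.14) or mut9 replicate 5 (1.27).

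The order of the 5 group means shows how the receptors differ among themselves. For PDGFRA and AXL it ran delta 22, knockdown, mut9, wild-type, control, and each neighbouring pair differed except delta 22 and knockdown. For EGFR knockdown led, and all 4 neighbouring pairs differed. For MET and FGFR1 the neighbours that did not differ beyond their spread were delta 22 and knockdown at the top and mut9 and wild-type in the middle. For ERBB2 the step from knockdown down to control was the only called one. For DDR2 it was the step from control down to wild-type, and for KIT the step from control down to delta 22. For PDGFRB no neighbouring pair differed.

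Linear values were divided by the length of the merged exons to set the receptors side by side. That length joins the exons of every annotated transcript, 5.15 kb for AXL and 13.8 kb for FGFR1, whichever transcripts the cells use. Ranks between receptors therefore depend on the annotation. In control DDR2 led with a median of 1168 per kb, which was 55.3% of the sum over the 9 receptors, and FGFR1 followed with 412 per kb. PDGFRA (5.83 per kb) and EGFR (2.36 per kb) were the lowest. In knockdown AXL led with 1668 per kb, ahead of MET with 1487 and DDR2 with 1364, and their ranges over libraries overlapped. Before division the linear values of the knockdown means were 14547 for FGFR1, 14131 for DDR2, 10270 for MET and 8400 for AXL. PDGFRA reached 732 per kb and EGFR 220 per kb, so EGFR remained below DDR2 and FGFR1 even after a 103-fold rise.

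In the wild-type group DDR2 (983 per kb) and FGFR1 (570 per kb) led again, as in control. The same pair led in mut9, at 1239 and 619 per kb. KIT went from the third place in control, at 165 per kb, to 30.8 per kb in wild-type. The share of the sum held by PDGFRA was 0.276% in control and 1.19% with the intact protein put back. It was 10.5% in knockdown, 14.2% for delta 22 and 4.23% for mut9. These are message levels, and protein was not measured.

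**Figure D3:**
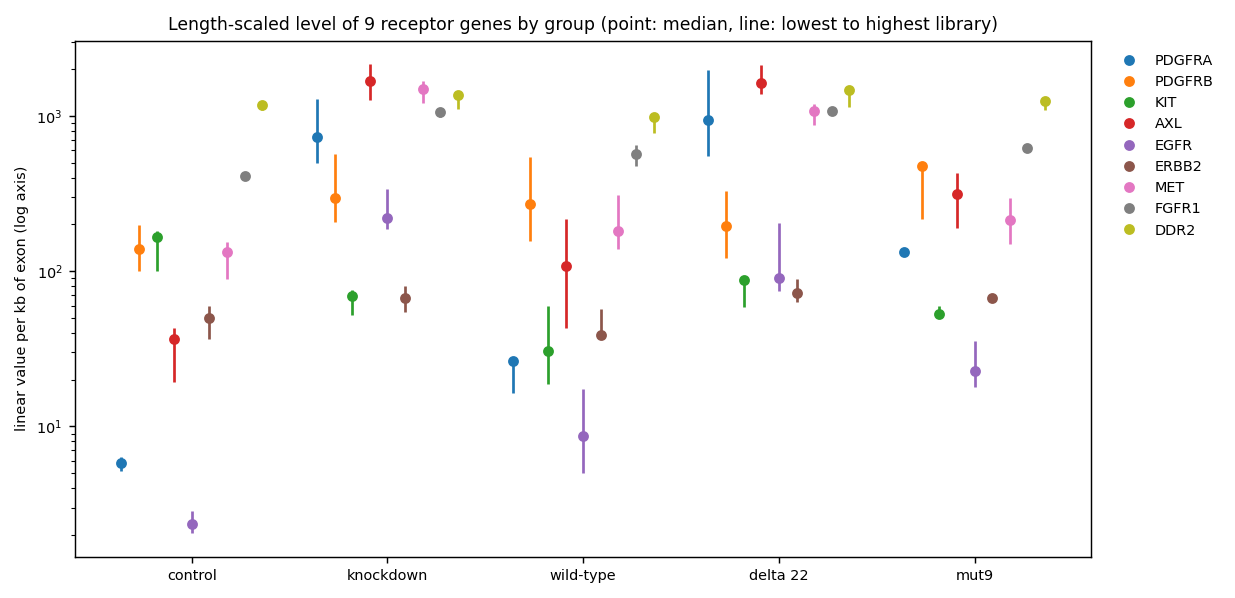
Linear value per kb of exon (vertical axis, log scale) of the 9 receptor genes in each group (horizontal axis). Points are medians over libraries and lines run from the lowest to the highest library. DDR2 and FGFR1 lead in control, wild-type and mut9, and AXL leads in knockdown and delta 22.

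Position and overlaps were taken from GENCODE 29 (GRCh38) by gene identifier. PDGFRA (chromosome 4, 54229097 to 54298247) and KIT (54657918 to 54740715) are neighbours on the plus strand with 0 protein-coding genes in the 360 kb between them, and KDR, a receptor for vascular endothelial growth factor, follows KIT after 338 kb. PDGFRA rose 132-fold and KDR 16.1-fold with knockdown, while KIT, between them, fell 2.28-fold. PDGFRB (chromosome 5) lies 464 bases from CSF1R, the receptor for colony-stimulating factor, which rose by 1.86. Strand use in the counting is not stated. PDGFRA shares 15.8% of its exon bases with AC058822.1, a protein-coding gene annotated on the same strand, for which no value was used here. ERBB2 shares 5.53% of its exon bases with MIEN1 and 1.88% with PGAP3 on the other strand, FGFR1 shares 0.997% with LETM2, EGFR shares 1.49% with EGFR-AS1, and AXL shares 1.30% with AC011510.1. The means of MIEN1 lay between 8.42 and 8.52 in all 5 groups.

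Of 49 other receptor tyrosine kinases 43 were tested, and with knockdown 13 rose, 18 fell and 12 were not called, with a median log2 difference of -0.22. The share called in either direction, 72.1%, was near the 69.5% of all genes. The largest rises were those of TIE1 (4.49 ± 0.36), an endothelial receptor, KDR (4.01 ± 0.30) and NTRK2 (3.01 ± 0.54), the receptor for brain-derived neurotrophic factor. The largest falls were those of FLT4 (-3.18 ± 0.25), a receptor for the lymphatic growth factor VEGF-C, RET (-2.78 ± 0.24), the signalling receptor for GDNF, and FGFR4 (-2.56 ± 0.23). All 6 had an adjusted p under 0.05 in the limma fit.

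The closest relatives of the 9 receptors had these values with knockdown. EGFR rose by 6.68, while ERBB3 fell by 0.79 and ERBB4 fell by 2.18. AXL rose by 5.66, while its relatives TYRO3 (-0.16) and MERTK (-0.48) were not called. FGFR1 rose by 1.36, while FGFR2 (0.45) and FGFR3 (-0.36) were not called and FGFR4 fell. DDR1, the other collagen receptor, was at 0.10 and not called, as was DDR2. FLT3, a relative of KIT, was lower by 0.45, a call lost without control replicate 3 or 5. The difference between relatives was not tested. MERTK was called without control replicate 1, knockdown replicate 1, mut9 replicate 5 or wild-type replicate 2, and with batch as a block (-0.55, adjusted p = 0.022), and FGFR2 was called with the block too (0.43, adjusted p = 0.0297).

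In wild-type against knockdown the other receptors were 22 higher and 13 lower, and in mut9 against knockdown 20 higher and 9 lower. The shares called were 81.4% and 67.4%, against 61.8% and 48.6% of all genes. NTRK3 passed the filter only through wild-type and mut9 libraries, with highest values of 2.47 in control, 2.37 in knockdown and 2.66 in delta 22. LMTK3 did not reach the threshold in knockdown or delta 22 (highest 2.60 and 2.55), nor MUSK in wild-type or mut9 (highest 3.00 and 3.06). Differences of these genes from those groups were favoured by the filter. With delta 22 there were 2 higher, ROR1 (0.81) and KDR (1.36), and 1 lower, ROS1 (-0.89), these 3 being named after their values were seen (6.98% called, against 4.50% of all genes). ROS1 passed the filter only through knockdown and delta 22 libraries, with a low delta 22 mean of 3.33. Its highest values were 2.04 in control, 2.82 in wild-type and 2.31 in mut9, so its differences from those groups were favoured by the filter. Without delta 22 replicate 1 the count of 2 was 1, and without delta 22 replicate 1 or 4 or knockdown replicate 2, 3 or 5 the count of 1 was 0. In mut9 against wild-type 9 were higher and 2 lower (25.6% called, against 18.8% of all genes). Among the higher ones were INSRR (1.53 ± 0.30) and LMTK3 (1.12 ± 0.23), and the 2 lower ones were FLT4 (-1.38 ± 0.28) and EPHA4 (-0.46 ± 0.13). EPHA4 was not called without mut9 replicate 5.

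**Figure D4:**
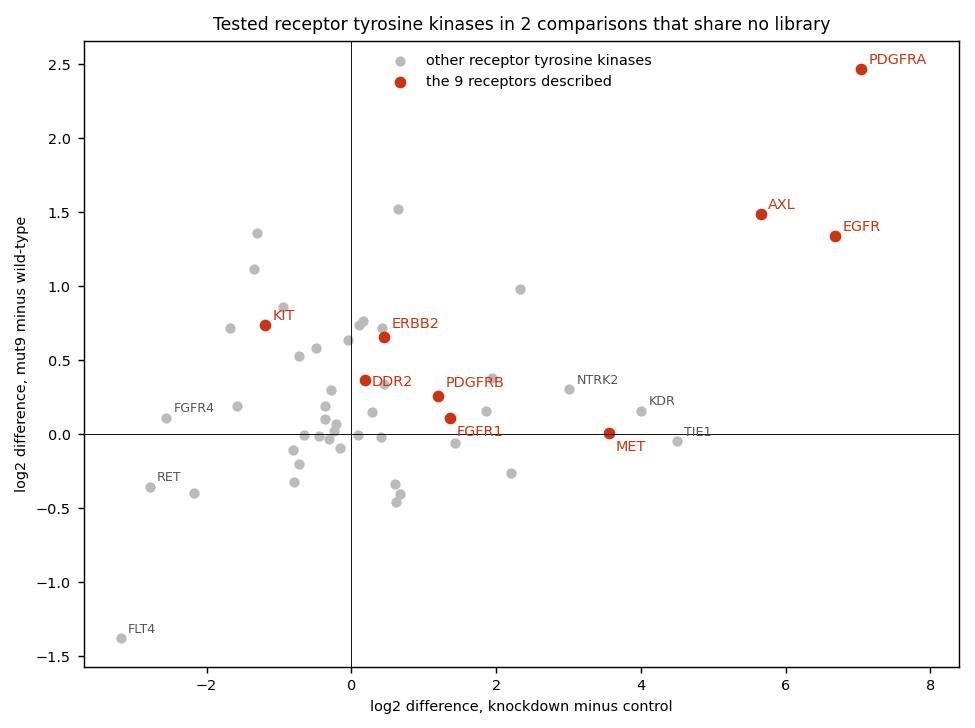
Log2 difference of each tested receptor tyrosine kinase in knockdown minus control (horizontal axis) and in mut9 minus wild-type (vertical axis), 2 comparisons that share no library. Red points are the 9 receptors and grey points the 43 others. PDGFRA, AXL and EGFR lie at the upper right, and MET lies on the horizontal line at 0.01.

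Ligands were taken as a list of their own. It also holds ligands of close relatives of the 9 receptors, among them NRG1 and NRG2, which bind ERBB3 and ERBB4, the partners of ERBB2, and FGF7 and FGF18, which mainly bind other FGF receptors. Of 27 ligands 24 were tested, and with knockdown 21 rose and 3 fell, with a median log2 difference of 2.64. The share called was 100%, against 69.5% of all genes in either direction. FGF5 and FGF7 passed the filter only through knockdown and delta 22 libraries, with highest control values of 1.73 and 2.52. Their rise was therefore favoured by the filter. PDGFA, a ligand of PDGFRA, rose 82.6-fold (6.37 ± 0.23), EREG, a ligand of EGFR, 51.8-fold (5.70 ± 0.38), and GAS6, the ligand of AXL, 31.9-fold (4.99 ± 0.25). The 3 that fell were PDGFD (-1.65 ± 0.26), a ligand of PDGFRB, FGF18 (-0.72 ± 0.23) and EGF (-0.67 ± 0.15). HGF, the ligand of MET, rose by 3.66, and KITLG, the ligand of KIT, rose by 2.35 where KIT itself fell.

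With wild-type EWS/FLI 19 of the 24 ligands fell and 2 rose, and with mut9 16 fell and 3 rose, both against knockdown. The shares called were 87.5% and 79.2%, against 61.8% and 48.6% of all genes. The limit given for FGF5 and FGF7 applies to these counts too. With delta 22 1 fell, PDGFB (-1.03), and 0 rose (4.17% called, against 4.50% of all genes). That count of 1 was 0 with 12 of the 21 libraries left out in turn, and 3 with batch as a block. PDGFD rose by 3.86 with wild-type and by 4.11 with mut9, past its control level. In mut9 against wild-type 7 ligands were higher and 0 lower (29.2% called, against 18.8% of all genes). The count of 7 was 3 or 4 without mut9 replicate 3 or 4 or wild-type replicate 1. COL5A1 (1.20 ± 0.24) and COL1A2 (1.18 ± 0.28), collagen chains listed here as ligands of DDR2, and NRG2 (0.98 ± 0.32) led. NRG2 was not called without any 1 of mut9 replicates 3, 4 and 5 or wild-type replicates 1, 2 and 3.

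Proteases that release ligands from the membrane, and their regulators, were a list of 7. All 7 rose with knockdown, and all 7 fell with wild-type EWS/FLI, where 69.5% and 61.8% of all genes were called in either direction. RHBDF1 (2.73 ± 0.21) and RHBDF2 (2.67 ± 0.21), which carry the protease ADAM17 to the surface, led the rises, followed by ADAM10 (1.20 ± 0.10). ADAM17 itself rose by 0.36. TIMP1 (0.99 ± 0.17) and TIMP3 (1.05 ± 0.30), tissue inhibitors of metalloproteases, are on the list and rose as well. With mut9 5 fell, and with delta 22 0 were called in either direction by limma, where 48.6% and 4.50% of all genes were called. In mut9 against wild-type ADAM9 (0.70 ± 0.11) and ADAM10 (0.39 ± 0.10) were higher, the latter not without mut9 replicate 3 or 4. The share called there was 28.6%, against 18.8% of all genes.

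Of 25 adaptors and proximal signalling genes 15 rose and 2 fell with knockdown, with a median of 0.34. The share called, 68.0%, was near the 69.5% of all genes. After quantile scaling 5 fell. STAT5A (4.24 ± 0.32), VAV3 (3.62 ± 0.23) and GAB2 (1.44 ± 0.19) rose most. The falls were small, PTPN11 (-0.26 ± 0.06), the phosphatase SHP2, and CRKL (-0.12 ± 0.05), and that of CRKL was lost without control replicate 1, 2 or 5 or knockdown replicate 1 or 2. The central adaptor GRB2 was at -0.01 and not called. In mut9 against wild-type 3 were higher, STAT5A (1.27 ± 0.35), VAV3 (0.94 ± 0.25) and STAT5B (0.56 ± 0.13), and SOS1 was lower (-0.19 ± 0.06). Without mut9 replicate 4 the count of 3 was 1, without wild-type replicate 3 it was 5, STAT5A was not called without mut9 replicate 3, and SOS1 was not called with any 1 of 8 libraries left out, mut9 replicates 3, 4 and 5 among them.

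Of 25 negative regulators 23 were tested, and 17 rose and 0 fell with knockdown, with a median of 1.11 (73.9% called, against 69.5% of all genes in either direction). After quantile scaling 1 fell. SPRY2 (4.09 ± 0.23), a Sprouty inhibitor of RAS-ERK signalling, SOCS3 (3.38 ± 0.22) and ERRFI1 (3.02 ± 0.27), which binds and inhibits EGFR, led. With wild-type 15 of the 23 fell and 2 rose, with mut9 10 fell and 1 rose, and with delta 22 0 fell and 1, SPRED1 (0.39), rose. The shares called were 73.9%, 47.8% and 4.35%, against 61.8%, 48.6% and 4.50% of all genes. The call of SPRED1 was lost with 10 single libraries left out, delta 22 replicates 1, 2 and 3 and knockdown replicates 2, 3, 4 and 5 among them. The 2 rises with wild-type were 1 without knockdown replicate 1 or wild-type replicate 2. SOCS3 was higher in mut9 than in wild-type (1.67 ± 0.24), with DUSP4 (0.95 ± 0.26) and SOCS2 (0.80 ± 0.23), and NF1 was lower (-0.37 ± 0.07). In that comparison 5 of the 23 were higher and 1 lower (26.1% called, against 18.8% of all genes). DUSP4 and SOCS2 were not called without mut9 replicate 4, nor SOCS2 without mut9 replicate 5.

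Of 19 transcriptional targets of the ERK pathway, some of which are also on the previous list, 15 rose and 0 fell with knockdown, with a median of 1.43 (78.9% called, against 69.5% of all genes in either direction). PHLDA1 (6.22 ± 0.29), IER3 (4.86 ± 0.35) and SPRY2 led. CCND1 and MYC, both at 0.04, were not called. With wild-type 13 fell and 2 rose, and with mut9 11 fell and 2 rose. The shares called were 78.9% and 68.4%, and 10.5% with delta 22, against 61.8%, 48.6% and 4.50% of all genes. With delta 22 1 rose, SPRED1, and 1 fell, MYC (-0.64), a call lost without delta 22 replicate 1. The 2 rises with mut9 were 1 without mut9 replicate 3 or 4. In mut9 against wild-type DUSP4 and ETV4 (0.82 ± 0.18) were higher and EPHA4 was lower. The share called there, 15.8%, was near the 18.8% of all genes. These lists were written with earlier results of these data known, and their counts are descriptions. Phosphorylation was not measured.

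**Figure D5:**
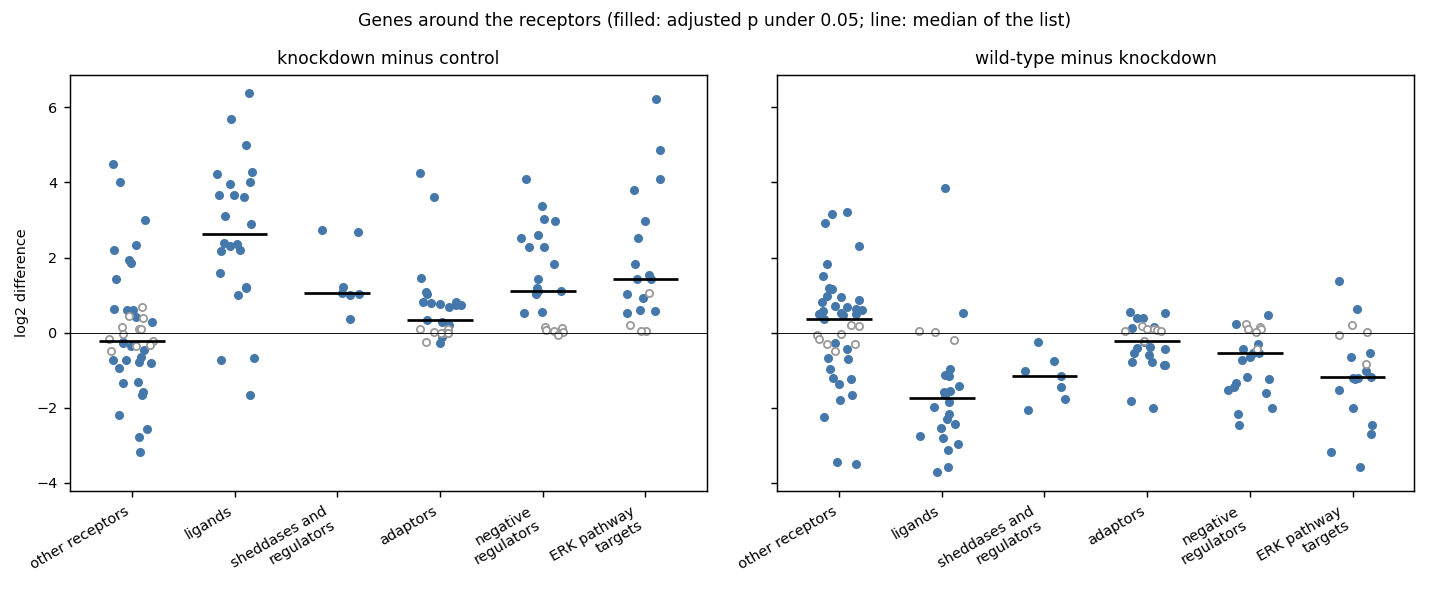
Log2 difference (vertical axis) of each tested gene of 6 lists (horizontal axis) in knockdown minus control (left) and wild-type minus knockdown (right). Filled points have an adjusted p under 0.05 and black lines are list medians. The ligand median is 2.64 on the left and -1.75 on the right.

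For each receptor the 2 genes with the most alike pattern over the 21 libraries were found by the root mean square difference of centred log2 values. They were LSP1 and ARHGAP22 for PDGFRA (0.49 and 0.51), WNT5B and GLIS3 for EGFR (both 0.57), and CEMIP and WNT5B for AXL (0.35 and 0.39). For MET they were FOSL1 and DMRTA1 (0.25 and 0.26), for FGFR1 RNF215 and CCSER2 (both 0.11), and for DDR2 TKT and EIF2AK4 (0.10 and 0.11). For ERBB2 they were KIAA0930 and ITSN2 (0.17 and 0.18), for PDGFRB DSE and EMILIN1 (0.42 and 0.44), and for KIT LINC00326 and SLC1A4 (0.48 and 0.50). The SD of the receptor itself over the libraries was 2.99 for PDGFRA and 0.85 for KIT, so the match was closer for the former in proportion. FOSL1 is also on the list of ERK targets, where it rose by 3.79 with knockdown.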

How the data were processed

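The labels name A673 cells, an RNeasy extraction with on-column DNA digestion, 2.5 ug of total RNA per library and ScriptSeq libraries. The submitters' processing notes name bcl2fastq, STAR 2.5.2b, HTSeq, DESeq2 and hg19. The deposited values are normalized log2 values made by the authors, with the look of regularized logarithms (-4.09 to 20.22). Such values draw low genes together, so differences of low genes may be understated. Depth is not kept. No pseudocount was added. All 21 columns were used, and the highest correlation between libraries was 0.998.

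Genes with 3 or more libraries at 10 or more on the linear scale (18040) were fitted with limma 3.58.1 with trend in R 4.3.3, with 1 mean per group over all 21 libraries. Adjusted p is the 2-sided limma value after Benjamini-Hochberg over all genes tested, called below 0.05, for 10 comparisons. The fit was tested on simulated data. Of the identifiers 51996 matched a GENCODE 29 symbol. Promoter sequences are from RefSeq (GRCh38.p14), shown for 6 receptors. Member windows on chromosome 8, where FGFR1 lies, were left out after the motifs had been counted. FGFR1 is therefore in no member count.

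The members and lists were chosen with earlier results of these data known. Named list genes are up to 3 largest rises and 3 largest falls per list among called genes, in knockdown against control and in mut9 against wild-type. The result of 1 gene that this rule names is not reported here. Subfamily relatives, ligands and other genes named beyond this rule were chosen with values seen. The replicate number is the labelled batch, so it pairs libraries: deviations from group means correlated at 0.203 on average over 34 same-batch pairs and at -0.0488 over 141 other pairs. The block is an alternative. Other alternatives were filters, scalings, array weights, no trend, the compared groups only, batches 3 to 5 only, and each library left out. Leaving out libraries for the lists was added after seeing the data.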

Additional observations from a re-analysis of the deposited data

Results flagged for a closer look

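In 36 groups of 4 or 5 libraries, 2 held a library far from the others by the Dixon ratio, both for DDR2, and chance marks about 1 in 20 such groups. The 9 groups of 3 were not tested. DDR2 was at 13.57 in delta 22 replicate 3, below the next lowest library at 13.94 (ratio 0.937). DDR2 was at 13.02 in wild-type replicate 5, below the next lowest at 13.34 (ratio 0.839). Without delta 22 replicate 3, DDR2 was lower in mut9 than in delta 22 (-0.28, limma adjusted p = 0.0287), which was not called with it (-0.19).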

How the results depend on the processing

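Depth is not kept in the values, so what it limits cannot be given. The directions that turned belong to differences that were not called. In delta 22 against knockdown, AXL was -0.13 in batches 3 to 5 and -0.0092 after quantile scaling (-0.072 to 0.14 with a library left out), DDR2 was -0.011 in batches 3 to 5, FGFR1 was -0.026 after quantile scaling, and PDGFRA was -0.028 in batches 3 to 5 (-0.0010 to 0.61 with a library left out). In mut9 against knockdown, ERBB2 was -0.021 with array weights, -0.11 in batches 3 to 5 and -0.12 with the replicate block (-0.048 to 0.088 with a library left out), and PDGFRB was -0.027 in batches 3 to 5. In mut9 against wild-type, MET was -0.028 with array weights, -0.26 in batches 3 to 5, -0.065 after quantile scaling and -0.11 with the replicate block (-0.23 to 0.26 with a library left out). In wild-type against knockdown, PDGFRB was 0.069 after quantile scaling (-0.25 to 0.19 with a library left out). DDR1 in knockdown against control was -0.021 in batches 3 to 5 and -0.033 after quantile scaling.

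Counts of receptors moved in these settings. Lower in delta 22 than in knockdown, the count of 1 was 0 in batches 3 to 5, in the compared groups only and with no filter (0 to 1 with a library left out). Lower in delta 22 than in wild-type, 0 became 1 with the replicate block (0 to 1 with a library left out). Higher in mut9 than in control, the count was 4 to 7 with a library left out, and 4 without mut9 replicate 4. Higher in mut9 than in delta 22, 0 became 1 with array weights (0 to 1 with a library left out). Higher in mut9 than in wild-type, 5 became 2 in batches 3 to 5 (3 to 6 with a library left out, 3 without mut9 replicate 4 or 5). Lower in wild-type than in control, 2 became 1 in batches 3 to 5. Over all genes, calls in delta 22 against knockdown numbered 811, and 1292 with the replicate block, 262 in the compared groups only and 15 in batches 3 to 5. Calls in mut9 against wild-type numbered 3390, and 5234 with array weights and 1745 in batches 3 to 5, and those in wild-type against control 7135, and 4588 in batches 3 to 5. Beyond the calls named for DDR2, PDGFRB, ERBB2, MERTK and FGFR2, the replicate block changed no call of the receptors or their relatives. The cause of these changes was not tested, apart from fewer libraries where some were left out.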
